A study of Nicotiana tabacum with 6 samples.

Results

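Genes that build and cleave carotenoids were followed in leaves of tobacco lacking 1 of 2 plastid photosystem genes (Nicotiana tabacum, cultivar spelled Petit Havanna). The 7 genes were Psy1, PSY2, PDS, ZDS, CrtR-b1, CCD1A and CCD1B. Their members were all probe sets that carry 1 of these tomato gene symbols in the platform annotation of the tomato GeneChip. That gave 9 of the 10209 probe sets of the table, 3 of them for Psy1 and 1 for each other gene. The study hybridised leaf RNA of 3 genotypes to 6 arrays, 2 for each: wild type (labelled normal), a psaA deletion mutant and a psbA deletion mutant. The plastid gene psaA encodes a reaction-centre protein of photosystem I, and psbA encodes the D1 protein of photosystem II. One growth text covers all groups: tissue culture on medium with 500 mg/L spectinomycin, dim light for 16 h and dark for 8 h, leaves taken 2 to 3 weeks after subculture. Whether wild type was in fact grown on the antibiotic is unclear from it, so drug and genotype cannot be told apart in comparisons with wild type. Replicates are labelled biological, but neither lines nor plants are named, so p-values measure only the spread between these arrays.

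Carotenoids are made in plastids from geranylgeranyl diphosphate. Phytoene synthase joins a pair of these molecules to phytoene, phytoene desaturase and zeta-carotene desaturase convert it stepwise towards lycopene, cyclases close the rings, and hydroxylases make xanthophylls. In green leaves the products sit in the antenna and reaction-centre complexes, where they harvest light and quench excess excitation, and carotenoid cleavage dioxygenases cut them into volatile and signalling apocarotenoids.

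Each value is a log expression value, taken here as log2, that the authors centred on the median of its probe set over the 6 arrays. It shows differences between arrays and no signal level. Whether a gene was bright or near background on these arrays cannot be read from it, levels of different genes cannot be compared, and leaf markers could not be checked for presence. With 6 arrays, centring sets the 2 middle arrays at equal distances above and below 0, and where these were the psbA arrays their mean is 0 by arithmetic. Differences between genotypes are not altered by the centring. Tobacco RNA met tomato probes, so a probe set can report more than 1 tobacco copy or a close paralogue, such as Psy1 beside PSY2 or CCD1A beside CCD1B. In leaf RNA, less RNA per cell and fewer cells of a type cannot be told apart.

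In the psaA mutant all 7 genes had a probe set called below wild type, by 1.33-fold to 2.19-fold. The other Psy1 probe sets were not called (log2 differences 0.28 and 0.05). Of the 9 probe sets 7 were called lower (limma adjusted p under 0.05) and 0 higher, against 6.06% of all 10101 tested probe sets called lower and 4.66% called higher. At an unadjusted p under 0.05 the count was also 7, against 23.8% of all. Arrays of the 2 groups did not overlap in 7 lower and 1 higher of the 9, against 24.9% lower and 28.8% higher of all. In the psbA mutant 3 of the 9 were called lower, those of ZDS, PSY2 and PDS, and 0 higher, against 5.76% and 5.41% of all probe sets. There 5 of the 9 were under 0.05 unadjusted, against 24.5% of all. Here 6 were lower without overlap and 0 higher, against 24.3% and 28.5% of all. The median log2 difference over the 9 was -0.68 in the psaA mutant and -0.27 in the psbA mutant, beside 0.02 for all tested probe sets in each comparison. The 3 probe sets lower in both mutants compare with 3.80% of all probe sets, and both comparisons share the wild-type arrays.

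**Figure D1:**
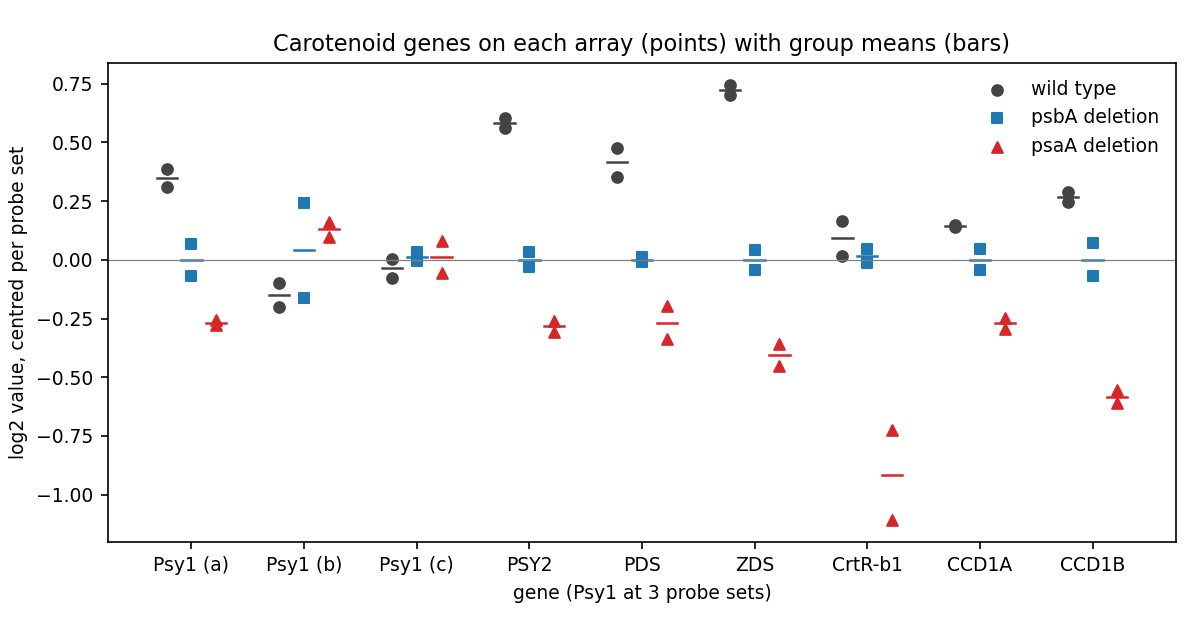
Centred log2 value (vertical axis) of each of the 9 probe sets (horizontal axis) on the 2 wild-type, 2 psbA deletion and 2 psaA deletion arrays (points), with group means as bars; Psy1 (a), (b) and (c) are the probe sets whose IDs end in S1_a_at, A1_at and S1_at. In 6 probe sets the wild-type arrays lie highest, the psbA arrays in the middle and the psaA arrays lowest, while CrtR-b1 separates the psaA arrays from all others.

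PSY2 (tomato gene ID 543964) encodes the phytoene synthase that tomato uses mainly in green tissue. Its log2 values were 0.60 and 0.56 on the wild-type arrays, 0.03 and -0.03 on the psbA arrays, and -0.31 and -0.26 on the psaA arrays. The 3 groups did not overlap, and the arrays of a group lay close together. Against wild type, PSY2 was 1.82-fold lower in the psaA mutant (log2 difference -0.87, SE 0.103, n = 2 per group, limma adjusted p = 0.00119). In the psbA mutant it was 1.5-fold lower (-0.58, SE 0.103, limma adjusted p = 0.00883). This second call ended without wild-type replicate 1 (adjusted p = 0.0597) or wild-type replicate 2 (adjusted p = 0.0512), while the psaA call held with any array left out.

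Psy1 (543988) encodes the phytoene synthase of tomato fruit chromoplasts, and its 3 probe sets, told apart by the endings S1_a_at, A1_at and S1_at of their IDs, disagreed. At S1_a_at the values were 0.38 and 0.31 in wild type, -0.07 and 0.07 in the psbA mutant, and -0.26 and -0.28 in the psaA mutant, again without overlap. This probe set was 1.53-fold lower in the psaA mutant (-0.62, SE 0.108, n = 2 per group, limma adjusted p = 0.00804). Its psbA difference of -0.35 was not called (adjusted p = 0.0789). With poly-A scaling that difference passed (-0.84, adjusted p = 0.00066), where 66.7% of all tested probe sets were called lower. The call in the psaA mutant ended without psaA replicate 1 (adjusted p = 0.0551), psaA replicate 2 (adjusted p = 0.0603) or wild-type replicate 1 (adjusted p = 0.0622).

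The other Psy1 probe sets did not show the fall. A1_at read -0.10 and -0.20 in wild type, -0.16 and 0.24 in the psbA mutant, and 0.10 and 0.16 in the psaA mutant. There the psaA arrays lay above both wild-type arrays, and the psbA arrays spanned both groups. Its differences of 0.28 (psaA, adjusted p = 0.293) and 0.19 (psbA, adjusted p = 0.481) were not called, with 95% intervals from -0.05 to 0.61 and from -0.14 to 0.52. S1_at read -0.08 and 0.01 in wild type, -0.01 and 0.03 in the psbA mutant and -0.05 and 0.08 in the psaA mutant, so its groups overlapped. Its difference was 0.05 in either mutant, with a 95% interval from -0.20 to 0.30 that does not reach the fall at S1_a_at in the psaA mutant. With poly-A scaling S1_at turned to -0.20 in the psaA mutant (adjusted p = 0.351) and to -0.44 in the psbA mutant. In the latter it was called lower (adjusted p = 0.0183), as were 66.7% of all tested probe sets. With the 3 probe sets averaged before the fit, Psy1 gave -0.10 in the psaA mutant (adjusted p = 0.67). Over the 6 arrays the falling Psy1 probe set had a Pearson r of 0.97 with PSY2 and of -0.55 and -0.42 with the other Psy1 probe sets, a description of arrays that fall into 3 genotypes. Whether the falling probe set takes up the PSY2 transcript was not tested.

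PDS (544073), the phytoene desaturase, catalyses the step after phytoene synthase. It read 0.47 and 0.35 in wild type, -0.01 and 0.01 in the psbA mutant, and -0.20 and -0.34 in the psaA mutant. The groups did not overlap, and each genotype had its own range. PDS was 1.60-fold lower in the psaA mutant (-0.68, SE 0.11, n = 2 per group, limma adjusted p = 0.00579) and 1.33-fold lower in the psbA mutant (-0.41, SE 0.11, limma adjusted p = 0.0474). The psaA call ended without psaA replicate 2 (adjusted p = 0.0551). The psbA call ended with any of its 4 arrays left out, at adjusted p = 0.14 and 0.122 (without psbA replicate 1 and 2), 0.214 and 0.111 (without wild-type replicate 1 and 2), after quantile normalization (adjusted p = 0.0828), with hybridisation-control scaling (adjusted p = 0.0597) and in the fit of the 2 groups alone (adjusted p = 0.0698).

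ZDS (543629), the zeta-carotene desaturase, showed the largest difference from wild type among the 9 probe sets in each mutant. Its values were 0.75 and 0.70 in wild type, 0.04 and -0.04 in the psbA mutant, and -0.45 and -0.36 in the psaA mutant. The 3 groups were apart by several times the gap between replicates. ZDS was 2.19-fold lower in the psaA mutant (-1.13, SE 0.106, n = 2 per group, limma adjusted p = 0.000413) and 1.65-fold lower in the psbA mutant (-0.72, SE 0.106, limma adjusted p = 0.0038). Both calls held with any array left out, and ZDS was the only 1 of the 7 genes for which this was so in the psbA mutant. Of all tested probe sets, 1.03% had a lower difference than ZDS in the psaA mutant and 2.48% in the psbA mutant.

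CrtR-b1 (544133) encodes a beta-carotene hydroxylase of green tissue, which makes zeaxanthin. Its values were 0.015 and 0.17 in wild type, 0.05 and -0.015 in the psbA mutant, and -1.11 and -0.72 in the psaA mutant. Wild type and the psbA mutant overlapped, while both psaA arrays lay far below, with the widest gap between replicates of any of the 9 probe sets in that mutant. CrtR-b1 was 2.01-fold lower in the psaA mutant (-1.01, SE 0.143, n = 2 per group, limma adjusted p = 0.00295), and this call held with any array left out. In the psbA mutant the difference was -0.07 (adjusted p = 0.809), with a 95% interval from -0.40 to 0.25. Scaled on the poly-A control RNAs added to each sample, it became -0.57 (adjusted p = 0.00685) and passed. With that scaling 66.7% of all tested probe sets were called lower in the psbA mutant, and the median of all was -0.47.

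CCD1A (543935) and CCD1B (544269) encode carotenoid cleavage dioxygenases, which in tomato release apocarotenoid volatiles. CCD1B read 0.24 and 0.29 in wild type, 0.07 and -0.07 in the psbA mutant, and -0.61 and -0.55 in the psaA mutant. CCD1A read 0.15 and 0.14 in wild type, 0.05 and -0.05 in the psbA mutant, and -0.25 and -0.29 in the psaA mutant. Both genes kept the 3 groups apart, with the psaA arrays standing off most clearly in CCD1B. In the psaA mutant CCD1B was 1.80-fold lower (-0.85, SE 0.108, n = 2 per group, limma adjusted p = 0.00164), a call that held with any array left out. CCD1A was 1.33-fold lower (-0.42, SE 0.104, limma adjusted p = 0.0382), but this call ended with any of the 4 arrays left out, at adjusted p = 0.132 and 0.165 (psaA replicate 1 and 2) and 0.15 and 0.143 (wild-type replicate 1 and 2), and after scaling on hybridisation controls (adjusted p = 0.0856). In the psbA mutant neither gene was called: CCD1B gave -0.27 (95% interval from -0.51 to -0.02, adjusted p = 0.17) and CCD1A -0.15 (from -0.38 to 0.09, adjusted p = 0.445). With poly-A scaling both passed, at -0.76 (adjusted p = 0.000801) and -0.64 (adjusted p = 0.00273), where 66.7% of all tested probe sets were called lower.

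**Figure D2:**
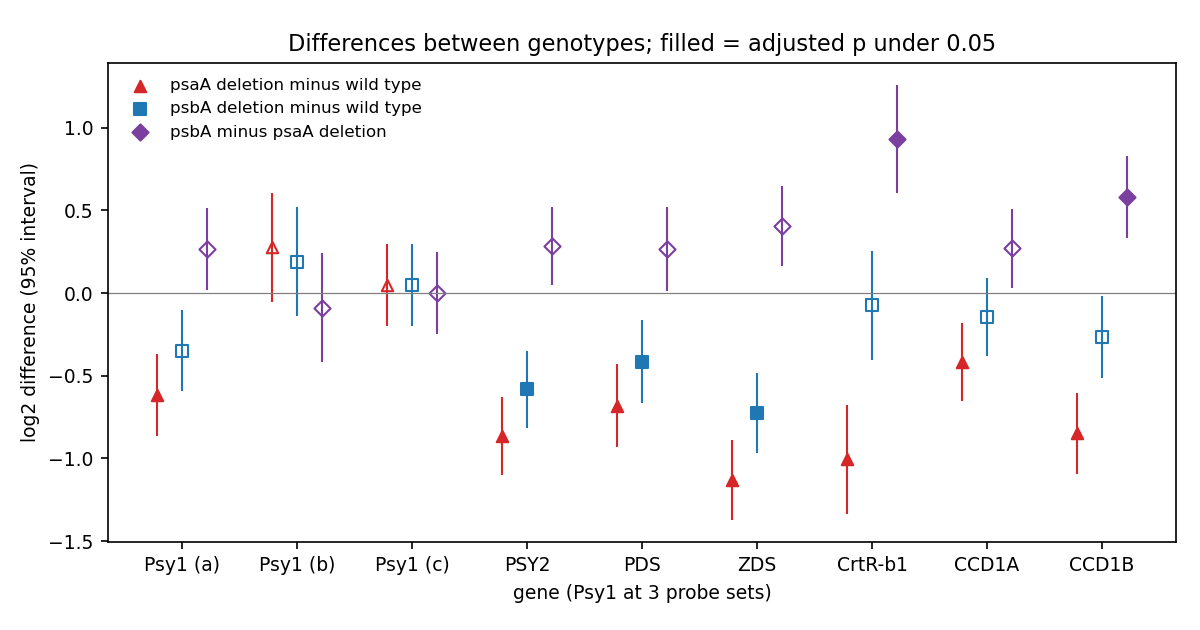
Log2 difference (vertical axis) between genotypes for the 9 probe sets (horizontal axis), with 95% intervals from limma as lines; filled symbols have an adjusted p under 0.05. Filled symbols stand at 7 probe sets for the psaA deletion against wild type, at ZDS, PSY2 and PDS for the psbA deletion, and at CrtR-b1 and CCD1B for the difference between the mutants.

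The mutants were compared with each other to test whether their differences from wild type were unequal. The probe sets of CrtR-b1 and CCD1B, 2 of the 9, were higher in the psbA mutant and 0 were lower, against 1.78% and 2.20% of all tested probe sets, and 7 of the 9 were under 0.05 unadjusted, against 17.8% of all. The unadjusted count was 2 of the 9 with poly-A scaling, against 29.4% of all, so the members did not stand out there. It was 3 of the 9 with scaling on the hybridisation controls, against 16.4% of all. The mutants did not overlap in 7 of the 9, higher in the psbA arrays each time, against 26.6% of all probe sets higher and 21.1% lower. CrtR-b1 was 1.91-fold higher (log2 difference 0.93, SE 0.143, n = 2 per group, limma adjusted p = 0.0104), and 99.7% of all probe sets had a lower difference. CCD1B was 1.5-fold higher (0.58, SE 0.108, limma adjusted p = 0.0231). The CrtR-b1 call ended without psaA replicate 1 (0.74, adjusted p = 0.0766), psbA replicate 1 (adjusted p = 0.079) or psbA replicate 2 (adjusted p = 0.0608). That of CCD1B ended without any of the 4 mutant arrays, at adjusted p = 0.142 and 0.118 (psaA replicate 1 and 2) and 0.112 and 0.0592 (psbA replicate 1 and 2), and with scaling on the added poly-A controls (0.34, adjusted p = 0.14).

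The remaining probe sets did not pass between the mutants. ZDS differed by 0.41 (95% interval from 0.16 to 0.65, adjusted p = 0.0781), PSY2 by 0.28 (from 0.05 to 0.52, adjusted p = 0.192) and PDS by 0.27 (from 0.01 to 0.52, adjusted p = 0.25). CCD1A also differed by 0.27 (from 0.03 to 0.51, adjusted p = 0.217), as did the falling Psy1 probe set (from 0.02 to 0.51, adjusted p = 0.238). These intervals lie above 0 although the adjusted p did not pass. With poly-A scaling the differences were 0.16 in ZDS, 0.0409 in PSY2, 0.03 in CCD1A, 0.025 at the falling Psy1 probe set and 0.02 in PDS, none of them called. The other Psy1 probe sets gave -0.09 (from -0.42 to 0.24) and 0.00 (from -0.25 to 0.25).

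In order of level, wild type stood highest, the psbA mutant in the middle and the psaA mutant lowest, with no overlap between arrays, in 6 of the 9 probe sets, against 5.24% of all tested probe sets. These were PSY2, PDS, ZDS, CCD1A, CCD1B and the falling Psy1 probe set. Neighbours in this order were separated by the test for wild type over psbA in PSY2, PDS and ZDS, and for psbA over psaA in CCD1B. For Psy1 and CCD1A neither step passed, although the whole span from wild type to the psaA mutant did. The psbA difference as a share of the psaA difference was 67.3% in PSY2, 64.1% in ZDS, 60.8% in PDS and 56.5% at the falling Psy1 probe set. It was 34.9% in CCD1A, 31.3% in CCD1B and 7.38% in CrtR-b1. These shares have no test, since both differences share the wild-type arrays, and they depend on the scaling. With poly-A scaling they were 97.4% in PDS, 97.1% at the falling Psy1 probe set, 96.3% in PSY2, 95.8% in CCD1A, 88.1% in ZDS, 69% in CCD1B and 45.1% in CrtR-b1. The order without overlap then held in 4 of the 9 probe sets, against 2.62% of all tested probe sets.

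Ratios of genes within an array were also read, without reference to scaling between arrays. The log2 value of CrtR-b1 minus that of ZDS was -0.73 and -0.54 in wild type, -0.66 and -0.36 in the psaA mutant, and 0.0042 and 0.03 in the psbA mutant. Both psbA arrays lay above all others, and wild type and psaA overlapped. For CCD1B minus CCD1A the values were 0.09 and 0.15 in wild type, 0.02 and -0.02 in the psbA mutant, and -0.36 and -0.26 in the psaA mutant. Here the psaA arrays stood apart on the lower side. ZDS minus PDS had means of 0.31 in wild type, 0.00 in the psbA mutant and -0.14 in the psaA mutant. PSY2 minus the falling Psy1 probe set had means of 0.24, 0.00 and -0.02 in the same order. These ratios were not tested.

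**Figure D3:**
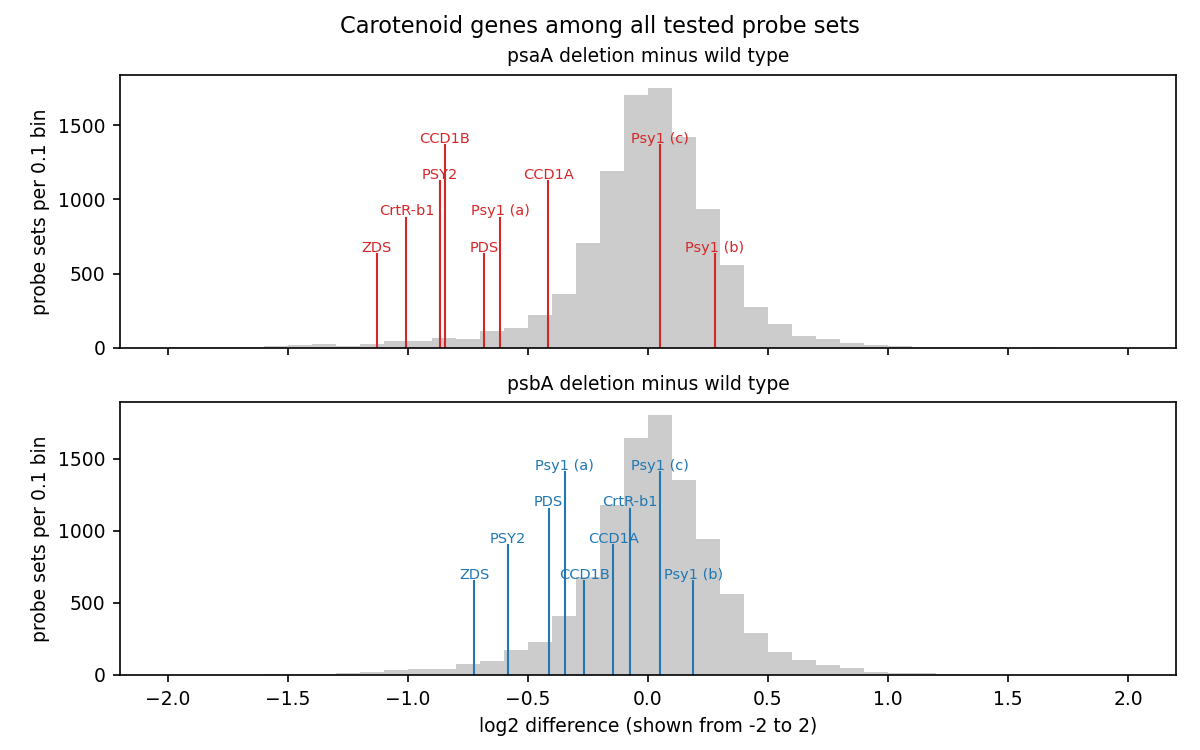
Number of tested probe sets (vertical axis, bins of 0.1) by log2 difference from wild type (horizontal axis, shown from -2 to 2) in the psaA mutant (top) and the psbA mutant (bottom), with the 9 carotenoid probe sets as coloured lines. In the psaA mutant 7 lines lie in the lower tail, from -1.13 (ZDS) to -0.42 (CCD1A), and 2 Psy1 probe sets lie near the centre or above it, while in the psbA mutant the lines lie nearer to 0, from -0.72 to 0.19.

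Other genes of the pathway were read from lists of precursor, cyclase, xanthophyll, cleavage, abscisic acid and branch genes, of which 17 were on the array at 18 probe sets. In the psaA mutant 5 of the 18 were lower, 2 were higher and 11 did not pass, against 6.06% lower and 4.66% higher of all tested probe sets. In the psbA mutant 4 were lower, 0 higher and 14 did not pass, against 5.76% and 5.41% of all. Under 0.05 unadjusted were 11 of the 18 in the psaA and 8 in the psbA mutant, against 23.8% and 24.5% of all. With poly-A scaling 8 were lower and 1 higher in the psaA mutant, where 15.7% of all tested probe sets were then called lower. In the psbA mutant 18 were lower, where 66.7% of all tested probe sets were then called lower. The median log2 difference was -0.22 in the psaA and -0.28 in the psbA mutant, beside -0.68 and -0.27 for the carotenoid members. It was thus closer to 0 than that of the members in the psaA mutant and about equal in the psbA mutant. Among the precursor genes, HDS of the plastid isoprenoid route was lower in both mutants (-0.78 and -0.70, limma adjusted p = 0.00405 and 0.0069) and DXR of the same route in the psaA mutant (-0.76, adjusted p = 0.0289). DXS, which opens that route, gave -0.12 and -0.15, and ISPE gave -0.20 and -0.34, none of them called. The DXR call ended without psaA replicate 2 (-0.49, adjusted p = 0.139), wild-type replicate 1 (adjusted p = 0.166) or wild-type replicate 2 (adjusted p = 0.0781), and the psbA call of HDS ended without wild-type replicate 1 (-0.66, adjusted p = 0.0547).

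Genes of the cytosolic isoprenoid supply were higher in the psaA mutant. FPPS1, a farnesyl diphosphate synthase, was 0.52 higher there (adjusted p = 0.0252) and 0.55 lower in the psbA mutant (log2 difference -0.55, adjusted p = 0.0185), so that the mutants differed by -1.07 (SE 0.116, limma adjusted p = 0.00194). HMGR, of the mevalonate route, was 0.78 higher in the psaA mutant (adjusted p = 0.00735), gave -0.25 in the psbA mutant (adjusted p = 0.305) and differed between the mutants by -1.03 (adjusted p = 0.00428). The call of FPPS1 in the psaA mutant ended without any 1 of its 4 arrays (adjusted p from 0.0783 to 0.148) and with poly-A scaling (0.27, adjusted p = 0.218). Its call in the psbA mutant ended without psbA replicate 2 (adjusted p = 0.0917) or either wild-type array (adjusted p = 0.0886 and 0.0982). HMGR lost its psaA call without psaA replicate 1 (adjusted p = 0.0693) or wild-type replicate 1 (adjusted p = 0.0611), and its call between the mutants without psaA replicate 1 (-0.93, adjusted p = 0.0592).

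Downstream of the desaturases, the lycopene epsilon-cyclase gene CRTL-E-1, which opens the branch to lutein, was lower in both mutants (-0.56 and -0.48, adjusted p = 0.0128 and 0.0239), calls that ended with any 1 of the arrays compared left out (adjusted p from 0.0516 to 0.117). The lycopene beta-cyclase gene LCY1 gave -0.47 and -0.36 and the plastid terminal oxidase gene PTOX -0.25 and -0.12, none of them called. LCY1 passed in the psaA mutant with poly-A scaling (-0.72, adjusted p = 0.015) and in the fit of the 2 groups alone (adjusted p = 0.0336), and in the psbA mutant with poly-A scaling (-0.85, adjusted p = 0.00206) and without psbA replicate 2 (-0.62, adjusted p = 0.0362). PTOX passed in the psbA mutant with poly-A scaling (-0.61, adjusted p = 0.0166). With that scaling 15.7% of all tested probe sets were called lower in the psaA mutant and 66.7% in the psbA mutant. In the xanthophyll cycle, VDE, the violaxanthin de-epoxidase, was lower in both mutants at its S1_at probe set (-1.68 and -1.12, adjusted p = 0.000105 and 0.000507) and gave -0.42 in either mutant at the other, A1_at, uncalled. The epoxidase gene ZEP was lower in the psaA mutant (-0.80, adjusted p = 0.00373) and gave -0.24 in the psbA mutant, a difference between the mutants of 0.55 (adjusted p = 0.0403) that ended with any of the 4 mutant arrays left out (adjusted p from 0.0901 to 0.225). VDE differed between the mutants by 0.56 (adjusted p = 0.0234), which likewise ended with any mutant array left out (adjusted p from 0.0905 to 0.141). With poly-A scaling these differences were 0.31 for both genes (adjusted p = 0.195 for ZEP and 0.168 for VDE).

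Genes after the ZEP step that carry carotenoids on to abscisic acid did not pass in either mutant with the values as deposited. The 9-cis-epoxycarotenoid dioxygenase gene NCED1 gave 0.17 and -0.08, the aldehyde oxidase gene AO1 gave 0.09 and -0.06, and FLACCA, whose product activates aldehyde oxidase, gave 0.38 (adjusted p = 0.0518) and -0.01. The neoxanthin synthase gene NSY gave 0.09 and -0.09, and CPS of the gibberellin branch gave 0.21 and 0.01. With poly-A scaling AO1 (-0.55, adjusted p = 0.0159), FLACCA (-0.50, adjusted p = 0.00935) and NCED1 (-0.57, adjusted p = 0.0122) were called lower in the psbA mutant. So were NSY (-0.58, limma adjusted p = 0.00762) and CPS (-0.48, limma adjusted p = 0.0196). There 66.7% of all tested probe sets were then called lower. FLACCA was called higher in the psaA mutant with hybridisation-control scaling (adjusted p = 0.0456) and quantile normalization (adjusted p = 0.0397). Of the pigment partners, the antenna genes CAB4 (-1.21), CAB5 (-0.96) and CAB6A (-0.69) were lower in the psaA mutant, and CAB4 (-0.68) and CAB5 (-0.66) in the psbA mutant, where CAB6A gave -0.32 (adjusted p = 0.15). The psaA call of CAB6A ended without psaA replicate 2 (adjusted p = 0.0727) or wild-type replicate 2 (adjusted p = 0.0638), the psbA call of CAB4 without psbA replicate 1 (adjusted p = 0.0609) or wild-type replicate 1 (adjusted p = 0.0768), and that of CAB5 without psbA replicate 2 (adjusted p = 0.0772) or either wild-type array (adjusted p = 0.0789 and 0.0724). POR2, a protochlorophyllide reductase, gave -0.32 in either mutant, uncalled.

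**Figure D4:**
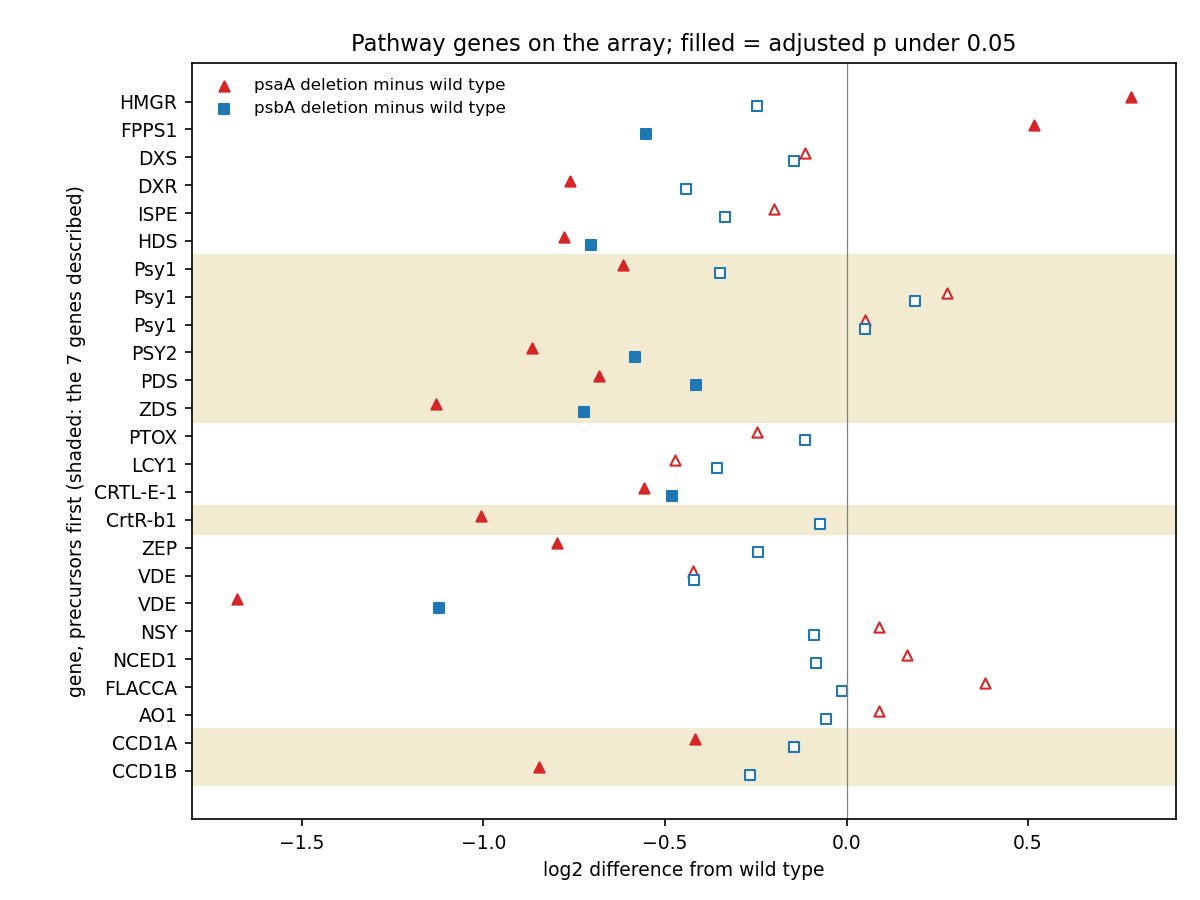
Log2 difference from wild type (horizontal axis) of pathway genes on the array, ordered from isoprenoid precursors at the top to cleavage genes at the bottom, 1 row per probe set, with the 7 carotenoid genes shaded; triangles are the psaA and squares the psbA deletion, filled where the adjusted p is under 0.05. HMGR and FPPS1 stand to the right of 0 in the psaA mutant, and the filled symbols of the desaturases, cyclase, hydroxylase and xanthophyll cycle genes stand to the left.

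For each of the 7 genes, the most similar of 693 other named probe sets were sought by Euclidean distance over the 6 arrays, with Pearson r as a description of arrays that share 3 genotypes. PSY2 was nearest to PSBO, a subunit of the oxygen-evolving complex (distance 0.21, r = 0.99), then to CAB5 (r = 0.98) and to chMDH, the chloroplast malate dehydrogenase (r = 0.98). ZDS was nearest to GPAT (distance 0.212, r = 0.99), gMDH and CAB5. PDS was nearest to the beta-galactosidase gene TBG7 (distance 0.189, r = 0.99), CEL8 and exp9.

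CCD1B was nearest to ZEP (distance 0.242, r = 0.96), CDKB1 and PRO1, and CCD1A to FESOD, an iron superoxide dismutase gene (distance 0.0896, r = 0.99), to PSBR and to exp11. CrtR-b1 had no close match: its nearest were P18 (distance 0.561, r = 0.99), SDH and ZEP, all with smaller differences between psaA and wild type than CrtR-b1 itself (-0.61, -0.56 and -0.80 against -1.01). The mean of the 3 disagreeing Psy1 probe sets was nearest to IMP1, ctu1 and ERF2, whose differences from wild type ranged from -0.16 to -0.01.

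Facts of the whole series that touch these results are few. Across all probe sets limma called 1083 in the psaA mutant (10.7%), 1128 in the psbA mutant (11.2%) and 402 between the mutants (3.98%). Of these 43.5%, 48.4% and 44.8% were higher, against 8.06%, 1.33% and 6.21% with arrays scaled to the poly-A control RNAs, and 53.8%, 50.3% and 32.3% when scaled on the hybridisation controls. Poly-A scaling moved the median of all probe sets to -0.23, -0.47 and -0.22. Under it 7 member probe sets were lower in the psaA mutant and 8 in the psbA mutant, against 15.7% and 66.7% of all tested probe sets. Between the mutants 1 member probe set was higher under it, against 60 of all 10101 tested probe sets. The 3' minus 5' difference of actin, gapdh, ef1a and ubiquitin, a sign of RNA quality, was 0.27 to 0.31 above wild type in the psaA mutant, and that of GlutTrans and PhyB2 was -0.12 and -0.13. In the psbA mutant these 6 ranged from -0.13 (actin) to 0.32 (ubiquitin). Between the mutants (psbA minus psaA) they were -0.40 for actin, -0.36 for gapdh and -0.40 for ef1a. Ubiquitin gave 0.02, GlutTrans 0.15 and PhyB2 0.10 in that comparison. Of the mesophyll marker list 4 genes were on the array at 7 probe sets. In each mutant 5 of these 7 were lower, against 6.06% (psaA) and 5.76% (psbA) of all tested probe sets. The gene ca2 held several of the 7, which disagreed: -3.11 and -2.83 in the psaA mutant were called, -0.87 and -0.26 were not. CAB4 and CAB5 on this list are the antenna genes already named. The median of the 7 was 0.67 and 0.65 on the wild-type arrays, 0.05 and -0.06 on the psbA arrays and -0.43 and -0.26 on the psaA arrays, the same order as in the carotenoid genes. Markers of root (5 genes), meristem (2), epidermis (1) and xylem (1) gave 1 higher and 0 lower in the psaA mutant, the xylem gene TPx1 (0.48, adjusted p = 0.0457). They gave 1 higher and 1 lower in the psbA mutant, Nramp2 (0.47) and NRAMP3 (-0.48). Of all tested probe sets 4.66% were higher in the psaA and 5.41% in the psbA mutant. The part of RNA quality and of cell makeup in the carotenoid differences was not tested.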

How the data were processed

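Leaf RNA of 6 samples was measured on the Affymetrix tomato GeneChip, 2 arrays for each of 3 genotypes. The authors deposited log2 values for 10209 probe sets, centred per probe set, since the median of each row was 0 to within 5e-07. RMA and GCRMA are named, without versions, per the submitters' processing notes, and which method made the values is not given in the sources used here. Base 2, usual for both methods, was assumed. The 108 control probe sets were left out, and limma 3.58.1 (R 4.3.3, lmFit and eBayes) was fitted to 10101 probe sets on all 6 arrays, with 3 residual and 5.39 prior degrees of freedom. P-values are two-sided and Benjamini-Hochberg adjusted over all tested probe sets, errors are limma's standard errors, and the number of arrays limits the precision (median SE 0.125, and 0.103 to 0.144 for the members). The fit was tested on simulated data. The members, lists, tests and the rule for named genes were chosen with earlier results of these data known. The rule named every probe set of the members, every listed pathway gene, and the 3 nearest named probe sets per member; LCY1, ISPE and FPPS1 were added from the array's gene names. Names came from the platform annotation of 2007, in which 909 probe sets had 1 symbol, 0 had several and 9192 had none. The members' tomato gene IDs matched 0 entries of the tobacco gene table, so no positions or sequences are given. Dim probe sets could not be filtered, since the values hold no level. Alternatives were the replicate number as a block, each array left out, scaling on poly-A or hybridisation controls, quantile normalization, fits of 2 groups, robust eBayes and averaged probe sets. Plots were drawn with matplotlib 3.10.9.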

Additional observations from a re-analysis of the deposited data

Results flagged for a closer look

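Among the carotenoid genes, 2 differed between the mutants in their distance from wild type by the test of that difference. CrtR-b1 fell in the psaA mutant and was not called in the psbA mutant, and its psbA difference minus its psaA difference was 0.93 on the log2 scale (SE 0.143, limma adjusted p = 0.0104), higher in both psbA arrays than in both psaA arrays. CCD1B showed the same at 0.58 (SE 0.108, limma adjusted p = 0.0231), again in both psbA arrays. Neither call held with every array left out in turn. The differences then ran from 0.74 to 1.12 for CrtR-b1 and from 0.51 to 0.65 for CCD1B. The CCD1B call also ended with poly-A scaling. Groups of 2 arrays are too small for a search for single outlying arrays.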

How the results depend on the processing

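Over the 9 member probe sets and the 3 comparisons, 270 values under alternatives gave 225 with the same direction and side of the threshold, 29 that lost a call, 4 that gained one (all in the psbA mutant with poly-A scaling) and 12 that changed sign. The calls of ZDS, PSY2, CrtR-b1 and CCD1B in the psaA mutant and of ZDS in the psbA mutant held under every alternative run. With 1 array left out, the arm left with 1 array was taken to vary like the other groups. The psaA comparison (limma) then called 494 to 563 probe sets and 4 to 6 of the members. The psbA comparison called 509 to 668 and 1 to 2, and the comparison of the mutants 115 to 197 and 0 to 1. Scaled on poly-A controls, the 3 comparisons called 1725, 6832 and 966 probe sets, with 8 members in the psbA and 1 between the mutants. Fitted on the 2 mutants alone, 266 probe sets and 1 member were called. Averaging its probe sets turned Psy1 in the psaA mutant to -0.10. The replicate numbers share only a number, with correlations of their deviations from -0.0086 to 0.021. With the replicate block, limma called 916, 965 and 301 probe sets and 6, 2 and 2 members, ending the calls of CCD1A in the psaA mutant (adjusted p = 0.0586) and PDS in the psbA mutant (adjusted p = 0.0647).

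Changes of sign were in values not called as deposited, and their cause was not tested. Those of the S1_at probe set of Psy1 between the mutants start from a deposited difference of 0.00, so they are not reversals. With poly-A scaling, the S1_at probe set of Psy1 gave -0.20, -0.44 and -0.24 in the psaA, psbA and between-mutant comparisons (the second called, adjusted p = 0.0183), its A1_at probe set gave -0.30 in the psbA mutant, and in the psaA mutant NSY gave -0.16, AO1 -0.16, NCED1 -0.0822 and CPS -0.0433 (-0.48 in the psbA mutant, called at adjusted p = 0.0196). Between the mutants S1_at also gave -0.0437 with hybridisation controls and -0.0098 with quantile normalization, and with the latter CPS gave -0.0149 in the psbA mutant. With 1 array left out, the psaA values ran from -0.018 to 0.12 for S1_at, from -0.55 to 0.0552 for PTOX, from -0.0887 to 0.27 for NSY, from -0.0917 to 0.27 for AO1, from -0.0552 to 0.39 for NCED1 and from -0.0251 to 0.44 for CPS. The psbA values ran from -0.0147 to 0.39 for A1_at, from -0.15 to 0.0016 for CrtR-b1, from -0.42 to 0.19 for PTOX, from -0.18 to 0.0019 for NSY, from -0.24 to 0.12 for AO1, from -0.0546 to 0.0298 for FLACCA, from -0.30 to 0.14 for NCED1 (-0.305 to 3 decimals) and from -0.054 to 0.067 for CPS. Between the mutants they ran from -0.29 to 0.11 for A1_at and from -0.0677 to 0.0677 for S1_at.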
